A study of Rattus norvegicus with 11 samples.

Results

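Vagal stimulation within brain-dead rats was examined by setting the 4 arrays titled as brain-dead with vagal stimulation (BD_VNS, replicates 1 to 4) against the 4 arrays titled as brain-dead control (BD, replicates 1, 3, 4 and 6). The arrays were chosen by title and are 8 of the 11 in the series. The other 3 are non brain-dead ventilated controls (NBD, replicates 1, 3 and 4), which served to estimate the spread and to give a level without brain death. The source label of the NBD arrays also speaks of brain-dead animals, against their titles. The titles were followed, so every NBD level rests on them. Each array measured total RNA of the small intestine on an Affymetrix rat array. The tissue was taken 6 hours after brain death in BD_VNS and BD, and the NBD rats had been anaesthetised and ventilated for 6 hours. For every group the labels call the rats transgenic and name no transgene. Strain, age, the settings and timing of the stimulation, and whether the BD rats had a sham operation on the nerve are not stated in the labels. Nor is it stated that the arrays come from separate animals, so p-values measure the spread between these arrays, which may be technical. The comparison covers 11427 genes with 1 probe set each, controls not included. Levels are log2 values as deposited, and a log2 fold change is the mean of BD_VNS minus the mean of BD.

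The vagus nerve joins the brainstem to the gut, where its efferent fibres end on neurons of the enteric nervous system. In rodents, stimulating the nerve lowers the release of cytokines such as tumour necrosis factor by macrophages, a reflex that involves acetylcholine and noradrenaline. The wall of the small intestine holds macrophages of the mucosa and the muscle layer, mast cells, and vessels that carry adhesion molecules for leukocytes. Brain death is known to raise inflammatory transcripts in organs taken for transplantation.

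The labelled tissue was checked against 11 genes that define the epithelium of the small intestine. Their mean level was 12.80 to 12.86 in the BD_VNS arrays, 12.57 to 12.83 in the BD arrays and 12.84 to 12.90 in the NBD arrays, and 2 of the 11 rose in BD_VNS against BD, and 0 without BD 4 and BD 6. Arrays BD 4 and BD 6 stood apart in transcripts of pancreatic acinar cells. The mean level of 24 measured acinar genes was 7.34 to 7.91 in the BD_VNS arrays, 13.2 in BD 4, 12.5 in BD 6, 7.32 and 7.40 in BD 1 and BD 3, and 7.32 to 7.41 in the NBD arrays. Of these 24 genes, 3 to 7 lay above the median gene of the array in BD_VNS, 23 did in BD 4, 22 in BD 6, 3 each in BD 1 and BD 3, and 4 in each NBD array. The trypsinogen gene Prss1, for example, was at 6.82, 6.73, 9.34 and 8.92 in BD_VNS 1 to 4 and at 6.83, 7.07, 14.24 and 14.10 in BD 1, 3, 4 and 6. A sign of RNA quality was also higher in the BD_VNS arrays than in BD and NBD, except in BD_VNS 2. The difference in level between the 3' and 5' control probe sets of Gapdh and Actb was 1.04, 0.75, 1.03 and 1.10 in BD_VNS 1 to 4, 0.76, 0.86, 0.85 and 0.89 in BD 1, 3, 4 and 6, and 0.69 to 0.87 in NBD. Its part in the results was not tested, but counts and folds are given with it as a covariate. In bulk tissue, fewer cells of a type and less RNA per cell cannot be told apart.

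With all arrays, 418 genes fell and 217 rose in BD_VNS against BD at an adjusted p under 0.05 (limma, Benjamini-Hochberg over 11427 genes). This is 5.56% of the genes tested, 3.66% lower and 1.9% higher. The falls were larger than the rises. The median log2 fold change was -0.37 among the falls and 0.21 among the rises, 16 genes reached a 2-fold change, all of them lower, and the largest rise was 0.51. Over all genes the balance ran the other way, since 62.5% had a log2 fold change above 0, with a median of 0.026. Falls made up 65.8% of the genes that passed, 54.0% after quantile normalization and 56.5% after each array was centred on its median. The 4 BD_VNS arrays and the 4 BD arrays did not overlap for 607 of the 635 genes that passed, while 13.1% of all genes tested had groups that did not overlap.

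Without BD 4 and BD 6, 140 genes fell and 12 rose (1.33% of genes tested, 1.23% lower and 0.105% higher). Of these 152 genes, 133 had also passed with all arrays in the same direction, 123 lower and 10 higher. They are 87.5% of the 152 and 20.9% of the 635. All 635 genes kept the sign of their change. For 607 of them this was fixed in advance, since their groups did not overlap with all arrays. The median log2 fold change in this smaller fit was -0.39 among the 418 falls and 0.19 among the 217 rises. With the 3' to 5' difference as a covariate, 273 genes fell and 142 rose (3.63% of genes tested, 2.39% lower and 1.24% higher), and with both changes at once 50 fell and 7 rose. Leaving out each array in turn gave from 279 genes without BD_VNS 4 to 1108 without BD_VNS 2, with 376 without BD_VNS 1, 355 without BD_VNS 3 and 298 without BD 6. A set of 228 genes, 199 lower and 29 higher, passed in all 11 of these leave-one-out fits.

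**Figure D1:**
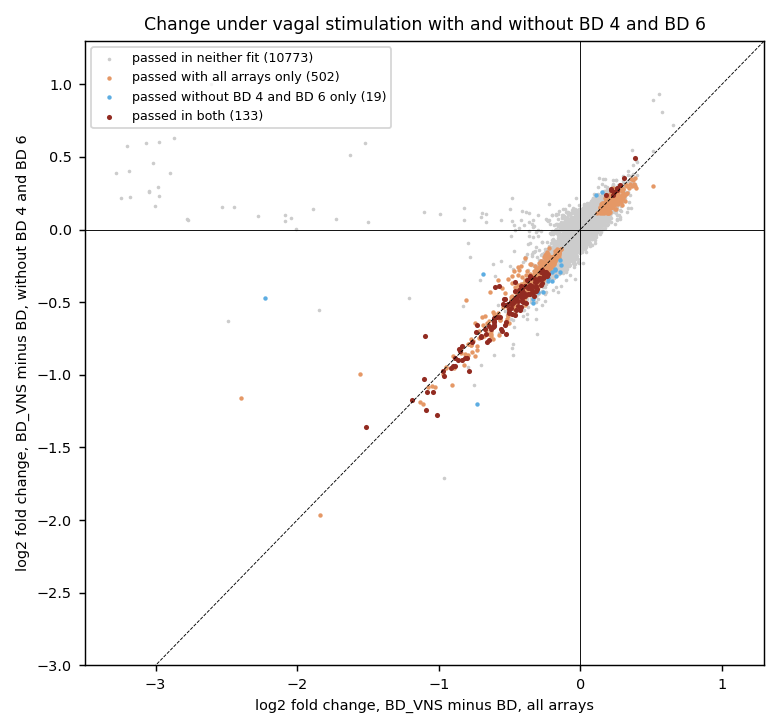
Log2 fold change of each gene in BD_VNS minus BD with all arrays (x axis) and without BD 4 and BD 6 (y axis), 1 point per gene. The 133 genes that passed in both fits keep their sign and 123 of them are below 0 on both axes, while acinar genes such as Prss1 and Cpa1 are far below 0 on the x axis (-2.61 and -3.28) and above 0 on the y axis (1.00 and 0.39).

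The largest falls with all arrays were in genes of complement, mast cells, chemokines, macrophages and matrix. Clu (Entrez Gene 24854), the secreted chaperone clusterin, was at 8.23, 8.72, 8.53 and 8.21 in BD_VNS 1 to 4 and at 10.34, 8.81, 12.48 and 11.64 in BD 1, 3, 4 and 6. The highest BD_VNS array came close to BD 3, and BD 4 and BD 6, which carry acinar transcripts, were the highest. Its fold change was -2.40 ± 0.58 (SE; limma adjusted p = 0.0352), and -1.16 without BD 4 and BD 6 (adjusted p = 0.104), so Clu did not pass there. Reg1a, which the exocrine pancreas makes in large amounts, had a change of -1.56 ± 0.36 with all arrays (adjusted p = 0.0306) and -0.99 without BD 4 and BD 6 (adjusted p = 0.166). Of the 11 fits that left out 1 array, Clu passed only in those without BD_VNS 2 or BD 3 (adjusted p up to 0.0982), and Reg1a lost its call without BD_VNS 3, BD_VNS 4, BD 3, BD 4 or BD 6 (adjusted p up to 0.0841).

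Mcpt1 (Entrez Gene 29266), a chymase of mucosal mast cells, was at 8.52, 9.76, 8.62 and 7.38 in BD_VNS 1 to 4, against 10.62, 10.45, 10.37 and 10.20 in BD 1, 3, 4 and 6. All 4 BD arrays lay within a narrow band above the BD_VNS arrays, which spread widely. The fit pools the spread over the groups, so the SE below can understate that of the BD_VNS arrays. The change was -1.84 ± 0.36 (SE; adjusted p = 0.0156), a 3.58-fold lower level, and it was -1.97 without BD 4 and BD 6 (adjusted p = 0.068). Other large falls were in Ifitm3, a membrane protein that blocks virus entry (-1.13 ± 0.22), C1qc, a chain of the complement starter C1q (-1.11 ± 0.20), Ctsl, the lysosomal protease cathepsin L (-1.09 ± 0.19), and Dcn, the matrix proteoglycan decorin (-1.08 ± 0.18). Each of these 5 genes passed in each of the 11 leave-one-out fits. Without BD 4 and BD 6, Ctsl passed (-0.73, adjusted p = 0.0279). The other 3 named with it had values of -1.09 for Dcn (adjusted p = 0.0521), -1.20 for C1qc (adjusted p = 0.0531) and -1.19 for Ifitm3 (adjusted p = 0.0759) and did not pass.

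The 12 largest falls that passed both with all arrays and without BD 4 and BD 6 were Cpa3, Ccl11, Cd53, Serping1, Mcpt10, Ccl2, Coro1a, Mgp, Igfbp7, Srgn, Cd48 and Tyrobp. Cpa3 (Entrez Gene 54242), the carboxypeptidase of mast cell granules, was at 7.08, 7.93, 7.15 and 6.70 in BD_VNS 1 to 4 and at 8.66, 8.49, 9.01 and 8.76 in BD 1, 3, 4 and 6. It was 2.85-fold lower (-1.51 ± 0.21, SE; adjusted p = 0.00441). Serping1 (Entrez Gene 295703), the inhibitor of the proteases of the C1 complex, was at 8.31, 9.08, 8.50 and 7.94 in BD_VNS, against 9.57, 9.58, 9.55 and 9.46 in BD (-1.08 ± 0.17; adjusted p = 0.00764). Mgp (Entrez Gene 25333), the matrix Gla protein that restrains calcification, was at 9.97, 10.20, 10.14 and 9.62 in BD_VNS and at 10.97, 10.94, 10.95 and 10.96 in BD (-0.97 ± 0.11; adjusted p = 0.00188). In all 3 genes BD_VNS 4 was the lowest and BD_VNS 2 the highest of the BD_VNS arrays, and no BD_VNS array reached a BD array. Cd53, a tetraspanin of leukocytes, was at 8.30, 8.95, 8.45 and 7.80 in BD_VNS, against 9.86, 9.38, 9.32 and 9.32 in BD (-1.09 ± 0.20; adjusted p = 0.0119). Coro1a, an actin regulator of leukocytes, lost its call in 1 of the 11 leave-one-out fits, without BD_VNS 4 (adjusted p = 0.0503), and the other 11 of these genes passed in all of them.

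**Figure D2:**
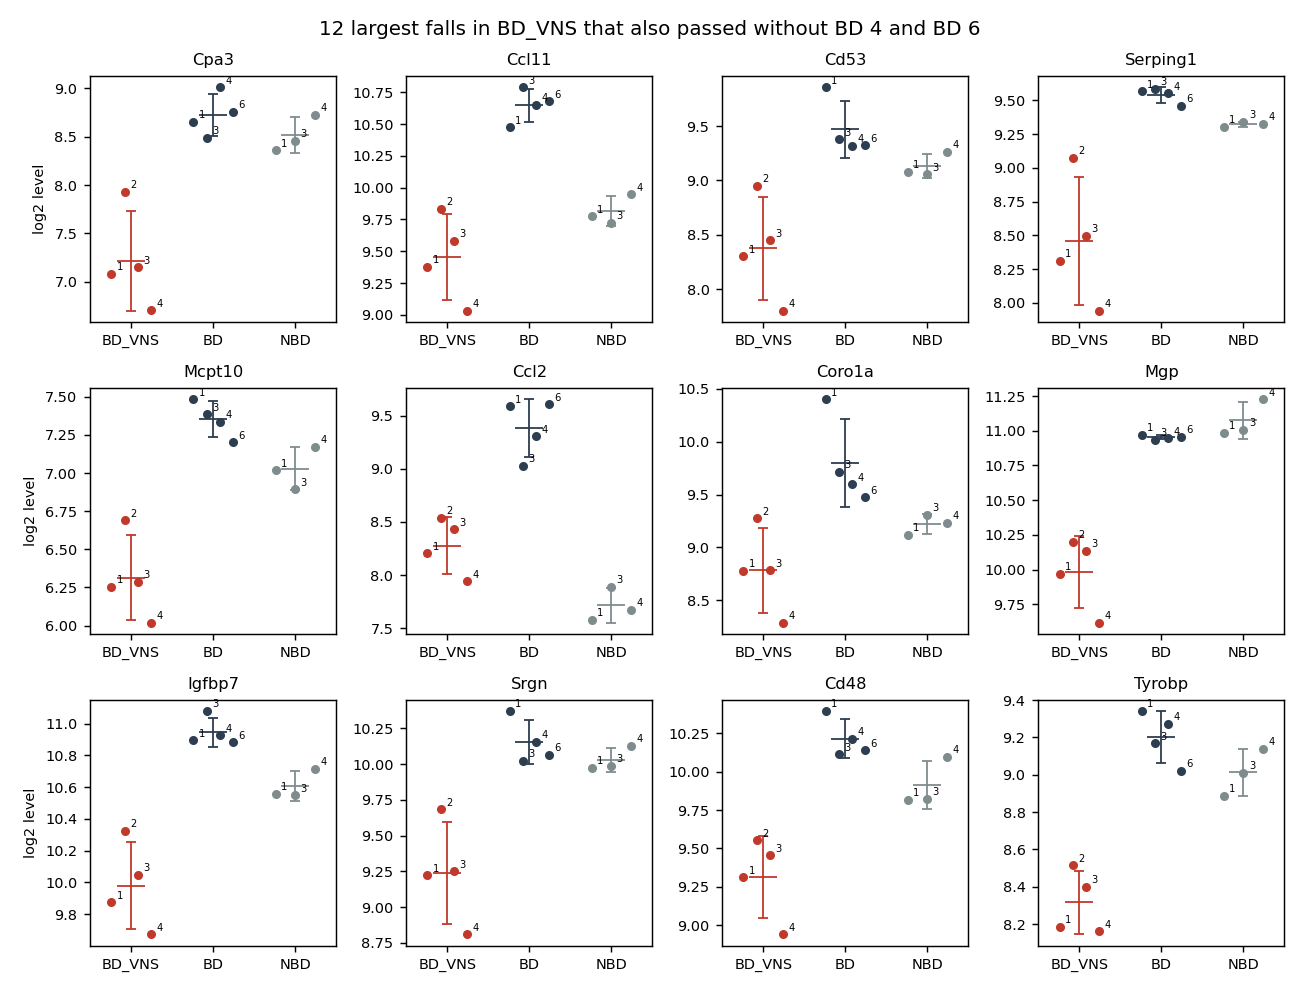
Log2 level in each array of the 12 genes with the largest falls among those that passed with all arrays and without BD 4 and BD 6, with replicate numbers beside the points, and the mean and SD of each group. In all 12 genes the 4 BD_VNS arrays lie below the 4 BD arrays, and BD_VNS 4 is the lowest of its group.

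This order among the BD_VNS arrays was common. BD_VNS 4 was the lowest of its group in 68.9% of the 418 genes that fell and in 22% of all genes, and BD_VNS 2 was the highest in 66.3% of those that fell and in 39.9% of all genes. BD_VNS 2 is also the BD_VNS array with the lowest 3' to 5' difference, 0.75, and BD_VNS 4 the one with the highest, 1.10. The part of RNA quality in the order of these arrays was not tested. With the 3' to 5' difference as a covariate, Cpa3 (-1.23, adjusted p = 0.0158), Serping1 (-0.78, adjusted p = 0.0158) and Mgp (-0.88, adjusted p = 0.0115) still passed, whereas Coro1a (-0.68, adjusted p = 0.0551) and Ifitm3 (-0.82, adjusted p = 0.0508) did not.

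The rises were small. Among the 12 largest rises whose groups did not overlap were carriers and enzymes of the absorptive epithelium. Slc2a5, the fructose carrier of the brush border, was at 11.45, 11.72, 11.66 and 11.42 in BD_VNS and at 11.38, 11.14, 11.09 and 11.09 in BD, a change of 0.39 ± 0.09 (SE; adjusted p = 0.0255). Slc16a10, a carrier of aromatic amino acids (0.39 ± 0.09), Anpep, the peptidase aminopeptidase N (0.36 ± 0.07), Chdh, which oxidises choline (0.33 ± 0.07), and Slc2a9, a urate carrier (0.33 ± 0.06), rose as well. None of these 5 passed without BD 4 and BD 6, where their changes were 0.25 to 0.35. Anpep and Slc2a9 passed in each of the 11 leave-one-out fits. Chdh lost its call without BD_VNS 1, BD_VNS 4 or BD 3 (adjusted p up to 0.0585), Slc2a5 without BD_VNS 3, BD 3, BD 4 or BD 6 (adjusted p up to 0.0774), and Slc16a10 without BD_VNS 3, BD_VNS 4, BD 3, BD 4, BD 6 or NBD 3 (adjusted p up to 0.0859). Hpdl (0.38 ± 0.06), an enzyme of mitochondria, Abhd6, a lipase that degrades monoacylglycerols (0.37 ± 0.06), and Ppargc1b, a coactivator of mitochondrial genes (0.33 ± 0.07), rose and passed in all 11.

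Of the 10 rises that passed in both fits, 9 are named under the rule: Axin2, Rrs1, Tfap4, Pom121, Pnoc, Angel1, Slc7a1, St8sia3 and Sf3a2. Axin2 (Entrez Gene 29134), a feedback inhibitor that Wnt signalling induces, was at 8.70, 8.28, 8.39 and 8.51 in BD_VNS and at 7.98, 7.97, 8.18 and 8.19 in BD. The arrays of the groups did not overlap, and the change was 0.39 ± 0.09 (SE; adjusted p = 0.0234), and 0.49 without BD 4 and BD 6 (adjusted p = 0.0435). The call was lost without BD_VNS 4, BD 1 or BD 3 (adjusted p up to 0.0699) and with the covariate (0.30, adjusted p = 0.0836). Rrs1, a factor of ribosome assembly, rose by 0.31 (adjusted p = 0.0166) and lost its call without BD 6 (adjusted p = 0.0506). Pom121, a protein of the nuclear pore, was at 8.71, 8.71, 8.71 and 8.73 in BD_VNS, against 8.46, 8.42, 8.51 and 8.44 in BD (0.26 ± 0.04; adjusted p = 0.00736), and passed in each of the 11 leave-one-out fits.

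Gene lists were set up by role and are described by how many measured members passed in each direction, beside 3.66% of all genes lower and 1.9% higher. Some genes are in several lists, so the counts of different lists are not independent. Of 31 CC and CXC chemokines, the ligands that draw leukocytes into tissue, 11 fell and 0 rose, with a median log2 fold change of -0.31 against 0.026 over all genes. Ccl11 (Entrez Gene 29397), eotaxin, which attracts eosinophils, was at 9.38, 9.84, 9.58 and 9.03 in BD_VNS and at 10.48, 10.79, 10.65 and 10.68 in BD, a 2.29-fold lower level (-1.19 ± 0.14, SE; adjusted p = 0.00188). Ccl2 (Entrez Gene 24770), which attracts monocytes, was at 8.20, 8.54, 8.43 and 7.94 in BD_VNS, against 9.59, 9.03, 9.30 and 9.61 in BD (-1.10 ± 0.15; adjusted p = 0.00397). For both ligands every BD_VNS array lay below every BD array. Cxcl12, which holds leukocytes in tissue through Cxcr4 (-0.62 ± 0.09; adjusted p = 0.00519), and Cxcl16, a transmembrane chemokine (-0.44 ± 0.06; adjusted p = 0.00597), fell too. These 4 ligands passed in each of the 11 leave-one-out fits, without BD 4 and BD 6, and with the covariate. None of the 4 is among the 28 genes that passed in every alternative fit, so each lost its call in at least 1 other. Cxcl1, which attracts neutrophils (-0.55 ± 0.11; adjusted p = 0.0195), had groups that overlapped and lost its call without BD_VNS 1, BD_VNS 4 or BD 6 (adjusted p up to 0.0558). In the fit without BD 4 and BD 6, 5 chemokines fell and the median was -0.32, and with the covariate 6 fell and the median was -0.17. With 1 array left out there were 5 falls without BD_VNS 4 to 13 without BD_VNS 2.

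Among 15 chemokine receptors 3 fell: Cxcr4, the receptor of Cxcl12 (-0.41 ± 0.08, SE; adjusted p = 0.0161), Ackr3, which takes up Cxcl12 (-0.28 ± 0.06; adjusted p = 0.0171), and Ccr1, a receptor of monocytes (-0.35 ± 0.07; adjusted p = 0.0185). Cxcr4 passed without BD 4 and BD 6 (-0.49, adjusted p = 0.0457), and the other 2 did not. With the covariate Ackr3 passed and the other 2 did not. Ccr1 lost its call without BD_VNS 1 or BD_VNS 4 (adjusted p up to 0.0585). Of 33 interleukins and TNF family ligands, 2 fell and 0 rose, with a median of -0.001. Il1b (Entrez Gene 24494), interleukin-1 beta, was at 8.26, 8.19, 8.26 and 7.99 in BD_VNS and at 8.98, 8.84, 8.85 and 8.81 in BD (-0.70 ± 0.07; adjusted p = 0.000933), and it passed in all 23 alternative fits. Il1a (-0.26 ± 0.07; adjusted p = 0.0393) did not pass without BD 4 and BD 6 or with the covariate, and passed in only 2 of the 11 fits that left out 1 array, those without BD_VNS 2 or BD 4 (adjusted p up to 0.114). Tnf was at 6.80, 6.79, 6.84 and 6.87 in BD_VNS and at 6.86, 6.81, 6.90 and 6.87 in BD, and Il6 averaged 6.39 ± 0.06 in BD_VNS and 6.44 ± 0.02 in BD (SD, n = 4 each). The groups overlapped for both (adjusted p = 0.627 for Tnf and 0.51 for Il6). Il10, an anti-inflammatory cytokine, averaged 6.30 ± 0.06 in BD_VNS and 6.29 ± 0.12 in BD. The levels of Tnf, Il6 and Il10 were low. In the BD_VNS and BD arrays the median gene was at 7.89 to 7.93 and the lowest gene at 5.36 to 5.52. Whether these transcripts were detected was not tested.

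Of 26 receptors of interleukins and TNF family ligands 2 fell, Csf1r, the receptor for macrophage growth factors (-0.77 ± 0.12, SE; adjusted p = 0.00642), and Il2rg, the shared gamma chain of lymphocyte receptors (-0.79 ± 0.16; adjusted p = 0.0159). Csf1r passed without BD 4 and BD 6 (-0.78, adjusted p = 0.0436) and Il2rg did not (-0.86, adjusted p = 0.0648). Of 17 NF-kB subunits and feedback regulators 2 fell, and 3 with the covariate. Bcl2a1, an NF-kB target that protects leukocytes from apoptosis, was at 7.62, 7.86, 7.78 and 7.31 in BD_VNS, against 8.65, 8.32, 8.56 and 8.46 in BD (-0.85 ± 0.11; adjusted p = 0.00309), and Map3k8, a kinase of the same signalling, fell by 0.40 (adjusted p = 0.00813). Bcl2a1 passed without BD 4 and BD 6 (-0.84, adjusted p = 0.0311) and Map3k8 did not (-0.37, adjusted p = 0.0521). Nfkbia, the inhibitor that NF-kB itself induces, averaged 9.43 ± 0.20 in BD_VNS and 9.76 ± 0.15 in BD (SD, n = 4 each; adjusted p = 0.075). Of 13 genes of Toll-like receptor and endotoxin sensing, Myd88, the adaptor of these receptors, fell by 0.14 (adjusted p = 0.0363). It did not pass with the covariate, and of the fits that left out 1 array it passed only in those without BD_VNS 2 or NBD 4 (adjusted p up to 0.0989). The fit without BD 4 and BD 6 called Cd14, the endotoxin co-receptor, in its place (-0.51, adjusted p = 0.0369).

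Of 29 interferon response genes, 8 fell and 0 rose, with a median of -0.089, and 2 fell without BD 4 and BD 6. The leave-one-out fits gave 4 falls without BD_VNS 3 to 8 without BD_VNS 2, NBD 1 or NBD 4. Gbp2 (Entrez Gene 171164), a GTPase that interferon-gamma induces strongly, was at 7.66, 7.70, 7.71 and 7.44 in BD_VNS and at 8.39, 8.19, 8.60 and 8.26 in BD (-0.73 ± 0.08, SE; adjusted p = 0.00188). Isg20, an RNA exonuclease, fell by 0.28 (adjusted p = 0.00618), and both passed without BD 4 and BD 6. Cxcl10, a chemokine that interferon induces, chosen after its values were seen, was at 7.52, 7.70, 7.48 and 7.49 in BD_VNS, against 7.91, 7.97, 8.12 and 8.59 in BD (-0.60 ± 0.12; adjusted p = 0.0185), and it lost its call without BD_VNS 3 or BD_VNS 4 (adjusted p up to 0.0554).

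The 250 bases before the start site were searched for 7 short motifs in the RefSeq promoters of the rat build GRCr8, on both strands. The letters of an interferon-stimulated response element, GAAA and GAAA with any 2 bases between them, stood in 24 of the 309 genes that fell and have a promoter in the table (7.77%), in 9 of 92 that fell in both fits (9.78%) and in 2 of 167 that rose (1.2%). They stood in 235 of 9113 genes tested (2.58%) and in 902 of all 27457 promoters (3.29%). The NF-kB letters, GGGA and CC with any 4 bases between them, stood in 24.6% of the promoters of genes that fell and in 21.7% of those tested, and the AP-1 letters TGANTCA in 8.74% and 4.89%. The STAT letters TTCNNNGAA stood in 8.41% and 6.06%, the ETS letters CAGGAAGT in 4.21% and 3.0%, the GC-box letters GGGCGG in 48.5% and 54.2%, and the E-box letters CACGTG in 5.5% and 7.67%. Among the genes that fell in both fits the shares were 20.7% for NF-kB, 5.43% for STAT, 7.61% for ETS, 45.7% for the GC-box and 5.43% for the E-box, with AP-1 in 11 of the 92, so the NF-kB, STAT, GC-box and E-box shares were below those of the genes tested. Promoters with the first motif are shown because of these shares, a choice made after the shares were seen. GC content differs between the sets, with a median of 57.6% for genes that fell, 54.4% for genes that fell in both fits, 60.0% for genes that rose and 59.2% for genes tested. A match is a description of the letters and not a binding site. The sequences are those of Gbp2 (chr2:234005477-234005726, plus strand), Isg20 (chr1:142239809-142240058, plus strand), Cxcl10 (chr14:15988816-15989065, plus strand) and Cd48 (chr13:86717744-86717993, plus strand), a leukocyte adhesion partner and 1 of the 12 falls above. They are given 5' to 3' on the strand of the gene, with the matching letters or their reverse complement in capitals.
Gbp2: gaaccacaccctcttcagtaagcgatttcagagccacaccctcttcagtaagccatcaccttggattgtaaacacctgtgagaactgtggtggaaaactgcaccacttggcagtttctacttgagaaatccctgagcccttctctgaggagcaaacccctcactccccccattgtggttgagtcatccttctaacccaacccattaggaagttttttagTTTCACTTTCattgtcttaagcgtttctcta
Isg20: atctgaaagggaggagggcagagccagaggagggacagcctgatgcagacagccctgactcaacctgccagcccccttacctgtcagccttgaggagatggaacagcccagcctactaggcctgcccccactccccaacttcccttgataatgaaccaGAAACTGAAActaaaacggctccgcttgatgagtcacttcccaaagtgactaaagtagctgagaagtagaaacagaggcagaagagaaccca
Cxcl10: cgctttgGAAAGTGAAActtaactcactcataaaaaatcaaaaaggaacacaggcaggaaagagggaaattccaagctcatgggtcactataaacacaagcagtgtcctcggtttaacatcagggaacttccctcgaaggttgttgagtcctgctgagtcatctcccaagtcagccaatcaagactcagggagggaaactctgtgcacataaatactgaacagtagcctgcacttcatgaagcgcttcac
Cd48: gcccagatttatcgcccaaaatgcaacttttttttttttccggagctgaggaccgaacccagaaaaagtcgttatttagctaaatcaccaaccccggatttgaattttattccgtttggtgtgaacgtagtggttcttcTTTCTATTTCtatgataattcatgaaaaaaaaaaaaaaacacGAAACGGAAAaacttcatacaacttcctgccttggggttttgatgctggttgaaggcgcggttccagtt

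In Gbp2 the match begins at -31 from the start site and is the reverse complement of the letters, and in Isg20 it begins at -92. In Cxcl10 it begins at -243, and Cd48 holds 2 matches, at -111 and -69. The log2 fold changes of Isg20 and Cd48 were -0.28 and -0.90, and both carry the letters. Srgn, a granule proteoglycan (-0.91), and Cybb, the catalytic subunit of the phagocyte oxidase (-0.80), are among the other falls whose promoters hold a match.

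Of 19 leukocyte adhesion genes 5 fell and 0 rose. Icam1, which binds leukocyte integrins on endothelium, was at 7.87, 8.31, 8.05 and 7.71 in BD_VNS and at 8.69, 8.45, 8.65 and 8.61 in BD (-0.61 ± 0.11, SE; adjusted p = 0.0111). Icam2 (-0.41 ± 0.07) and Jam2 (-0.26 ± 0.05), which also sit at endothelial junctions, fell and passed without BD 4 and BD 6, where Icam1 did not (-0.58, adjusted p = 0.0754). Vcam1, another endothelial integrin partner, overlapped between the groups (-0.55 ± 0.12; adjusted p = 0.024) and lost its call without BD_VNS 1, BD_VNS 3, BD_VNS 4, BD 1, BD 4 or BD 6 (adjusted p up to 0.0719). Sele, a selectin of activated endothelium, averaged 5.91 ± 0.04 in BD_VNS and 5.94 ± 0.09 in BD (SD, n = 4 each; adjusted p = 0.764), and Selp, another, differed by 0.03 ± 0.04 (SE; adjusted p = 0.69). The level of Sele was near the lowest gene of the arrays, at 5.36 to 5.52, and whether it was detected was not tested. With the covariate 3 adhesion genes fell, and leaving out 1 array gave 3 falls without BD_VNS 1, BD_VNS 3, BD_VNS 4 or BD 4, to 9 without BD_VNS 2. Of 26 endothelial genes 5 fell, with a median of -0.16. This count was 3 with the covariate, 2 without BD_VNS 3, BD_VNS 4, BD 4 or BD 6, and 10 without BD_VNS 2. Without both BD 4 and BD 6, 1 endothelial gene fell, Calcrl, which forms receptors for calcitonin gene-related peptide and adrenomedullin (-0.42, adjusted p = 0.0279).

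The macrophage and monocyte list had the highest share of falls among the 49 lists. It also holds leukocyte genes such as Cd53 and Coro1a. Of 28 measured genes 21 fell (75.0%) and 0 rose, with a median of -0.60, and without BD 4 and BD 6 13 fell with a median of -0.64. Tyrobp (Entrez Gene 361537), the signalling adaptor of myeloid receptors, was at 8.19, 8.52, 8.40 and 8.16 in BD_VNS and at 9.34, 9.17, 9.27 and 9.02 in BD (-0.89 ± 0.09, SE; adjusted p = 0.00188), and it passed in all 23 alternative fits. Ms4a7 (-0.83 ± 0.11; adjusted p = 0.00441), the lectin receptor gene Clec4a3 (-0.89 ± 0.13; adjusted p = 0.00519) and Ms4a6a (-0.61 ± 0.09; adjusted p = 0.00597) fell and passed in both fits. The mean level of the list was 8.10, 8.36, 8.13 and 7.84 in BD_VNS 1 to 4, 8.81, 8.66, 8.68 and 8.58 in BD 1, 3, 4 and 6, and 8.55 to 8.74 in NBD. Thus the BD_VNS arrays lay below both other groups, and BD and NBD overlapped. With the covariate 14 fell, and leaving out 1 array gave 15 falls without BD_VNS 4 to 24 without BD_VNS 2.

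Among 26 complement genes 11 fell and 0 rose. They included the 3 chains of C1q, which macrophages make: C1qa, chosen after its values were seen (-0.84, adjusted p = 0.015), C1qb (-1.04, adjusted p = 0.0114) and C1qc. These 3 genes are also counted in the macrophage list. Their adjusted p without BD 4 and BD 6 was 0.0803 for C1qa and 0.061 for C1qb. The protease gene C1s (-0.66 ± 0.11, SE), the scavenger collectin gene Colec12 (-0.61 ± 0.09) and the inhibitor gene Serping1 fell as well. Colec12 and Serping1 were the 2 complement genes that fell without BD 4 and BD 6. Of 31 genes of cathepsins and the lysosome 7 fell and 0 rose. The falls without BD 4 and BD 6 were 3, Ctse, Ctsl and Cd63, and with the covariate 5 fell. Ctse, cathepsin E, was at 8.69, 9.06, 8.69 and 8.59 in BD_VNS, against 9.67, 9.79, 9.31 and 9.41 in BD (-0.79 ± 0.12; adjusted p = 0.0056), and it passed in all 23 alternative fits. In the leave-one-out fits there were 9 to 12 falls of complement genes. Among lysosome genes 5 fell without BD_VNS 1, BD_VNS 4 or BD 6, to 9 without BD_VNS 2.

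Of 18 mast cell genes 7 fell and 0 rose, and 4 fell without BD 4 and BD 6: Mcpt10, Fcer1a, Cpa3 and Srgn. The list median was -0.143, and 11 genes did not pass. Among those, chosen after their values were seen, were Kit (-0.017), Gata2 (-0.017), Tpsab1 (-0.07) and Tpsb2 (0.083). Mcpt10, a granule protease, was at 6.26, 6.69, 6.29 and 6.02 in BD_VNS and at 7.48, 7.39, 7.34 and 7.20 in BD (-1.04 ± 0.12, SE; adjusted p = 0.00188). Fcer1a, the IgE-binding chain of the mast cell receptor, was at 6.17, 6.32, 6.24 and 6.03 in BD_VNS, against 6.78, 6.60, 6.76 and 6.60 in BD (-0.49 ± 0.06; adjusted p = 0.00356). The levels of Mcpt10 and Fcer1a were low, among the lowest 25% of genes by mean level. Whether these transcripts were detected was not tested. The list mean was 6.86 to 7.29 in BD_VNS, 7.44 to 7.55 in BD and 7.41 to 7.45 in NBD, so the BD_VNS arrays lay below both other groups. Probe sets of the Mcpt family may measure more than 1 of its similar members. With the covariate 6 fell, and leaving out 1 array gave 6 to 9 falls.

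In the lists of lymphocytes, MHC class II presentation and neutrophils 1 or 2 genes each passed. Falls made up 8.0% of the T and NK cell list, 18.2% each of the B and plasma cell and MHC class II lists and 9.09% of the neutrophil list, beside 3.66% of all genes. The list medians were -0.185 for T and NK cells, -0.373 for B and plasma cells, -0.295 for MHC class II and -0.027 for neutrophils. Of 25 T and NK cell genes 2 fell, Cd4 (-0.36 ± 0.07, SE; adjusted p = 0.0134) and the NK receptor gene Klrd1 (-0.38 ± 0.09; adjusted p = 0.0363), which overlapped between the groups and passed only without BD_VNS 1, BD_VNS 2 or BD 3 among the fits that left out 1 array (adjusted p up to 0.108). Of 11 B and plasma cell genes 2 fell, Tnfrsf17 and Mzb1, in 2 and 1 of those 11 fits, with an adjusted p of up to 0.0931 and 0.0989. Of 11 genes of MHC class II presentation 2 fell, RT1-Da (-0.64 ± 0.14; adjusted p = 0.0251) and the costimulator gene Cd86 (-0.30 ± 0.07; adjusted p = 0.0273), each in 6 of the 11, with an adjusted p of up to 0.0597 and 0.0843. Of 11 neutrophil genes 1 fell, Cybb (-0.80 ± 0.13; adjusted p = 0.0081), which macrophages also express. No T and NK, B or MHC class II gene passed without BD 4 and BD 6, where the list medians were -0.16, -0.48 and -0.42. Without BD_VNS 2, 8, 4 and 5 of them fell. With the covariate 2 T and NK cell genes fell and 0 genes of the B and plasma cell and MHC class II lists (limma). No difference between these lists was tested.

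**Figure D3:**
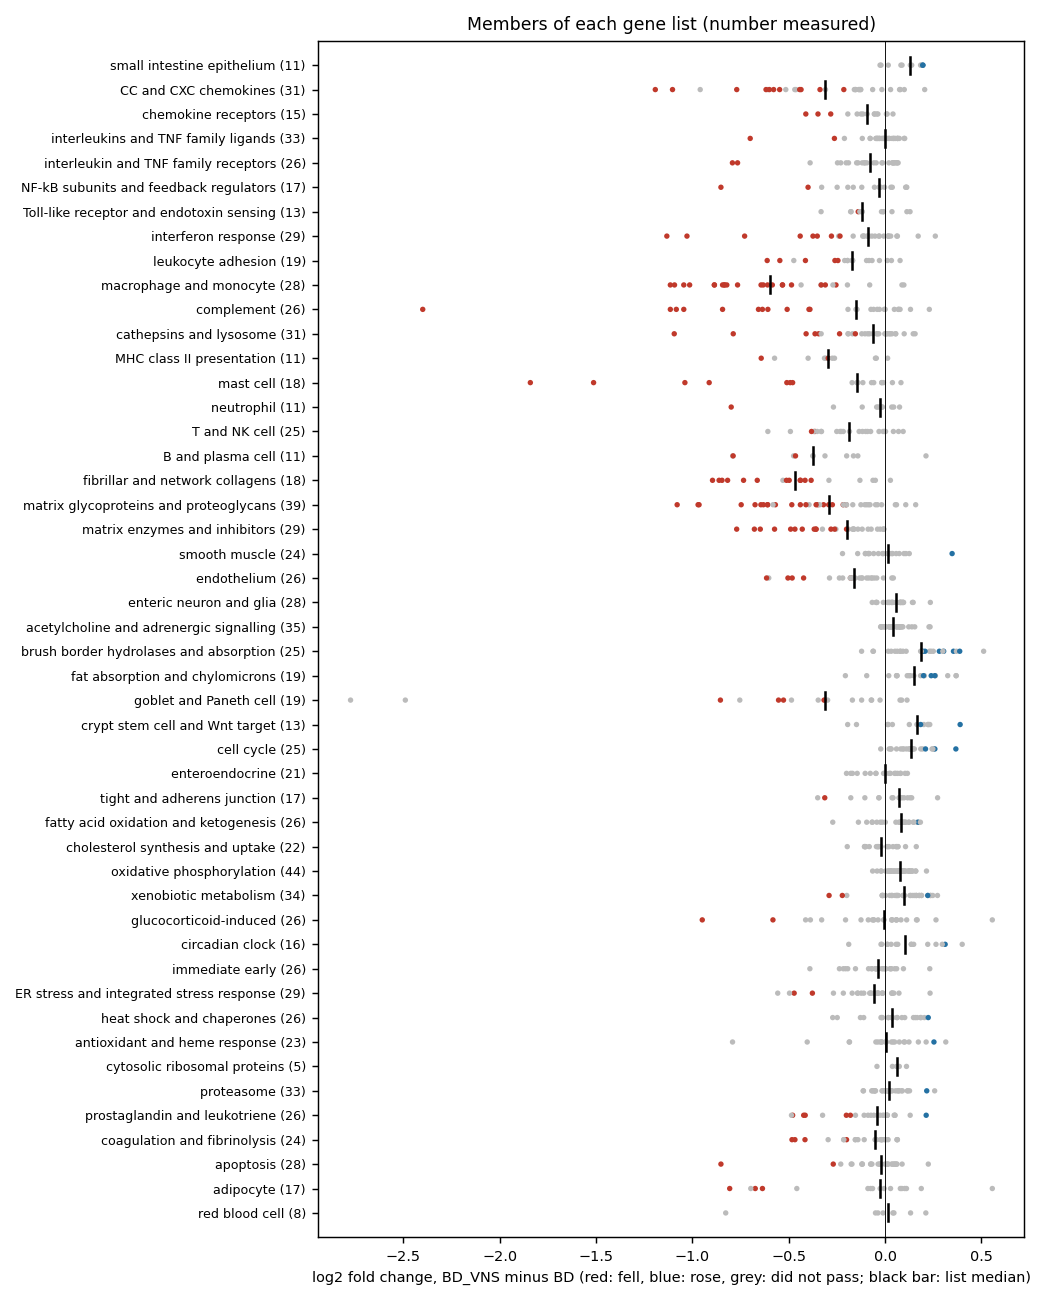
Log2 fold change in BD_VNS minus BD of each measured member of the gene lists, 1 point per gene, with the number measured in brackets and the list median as a black bar. Genes that fell are red, genes that rose are blue and genes that did not pass are grey. The macrophage list has 21 of 28 members in red and the brush border list has 6 of 25 in blue.

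Of 18 collagens 12 fell (66.7%) and 0 rose, with a median of -0.47. Col3a1 (Entrez Gene 84032), a fibrillar collagen of soft tissue, was at 11.03, 11.26, 10.99 and 10.62 in BD_VNS and at 11.62, 12.13, 11.82 and 11.78 in BD (-0.86 ± 0.13, SE; adjusted p = 0.00642). Col5a2, which regulates fibril width, was at 9.14, 9.22, 9.22 and 8.89 in BD_VNS, against 9.73, 9.92, 9.88 and 9.87 in BD (-0.73 ± 0.08; adjusted p = 0.00188). The groups did not overlap for either gene. In the fit without BD 4 and BD 6, 3 collagens fell, Col3a1, Col5a2 and, named after its values were seen, Col5a1, with a median over the list of -0.50, and with the covariate 5 fell with a median of -0.39. With 1 array left out there were 8 falls without BD_VNS 3 or BD 6, to 13 without BD_VNS 2.

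Of 39 matrix glycoproteins and proteoglycans 20 fell (51.3%) and 0 rose, with a median of -0.29. Ogn (Entrez Gene 291015), the small proteoglycan osteoglycin, was at 7.40, 7.67, 7.56 and 7.39 in BD_VNS and at 8.15, 8.23, 8.16 and 8.19 in BD (-0.67 ± 0.06, SE; adjusted p = 0.000933). Igfbp7, an insulin-like growth factor binding protein (-0.97 ± 0.11; adjusted p = 0.00188), and Lama4, a laminin chain of vessels (-0.36 ± 0.05; adjusted p = 0.00436), fell and passed in both fits. In the fit without BD 4 and BD 6, 6 fell and 1 rose, Fbln2, a fibulin named after its values were seen. With the covariate 12 glycoproteins and proteoglycans fell and 0 rose, with a median of -0.23. Of 29 matrix enzymes and inhibitors 13 fell and 0 rose. Members that fell included Serpinh1, the collagen chaperone (-0.49 ± 0.07; adjusted p = 0.00441), Serpinf1, an inhibitor of vessel growth (-0.65 ± 0.10; adjusted p = 0.00727), and Plat, tissue plasminogen activator (-0.47 ± 0.08; adjusted p = 0.00926). The fit without BD 4 and BD 6 had 4 falls and that with the covariate 6, both including these 3. The leave-one-out fits gave 14 falls of glycoproteins without BD_VNS 1 to 25 without BD_VNS 2, and 7 falls of enzymes without BD_VNS 4 to 16 without BD_VNS 2.

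In the lists of muscle and nerve 1 gene passed. Of 24 smooth muscle genes 0 fell and 1 rose, Ldb3, a protein of the contractile Z line (0.35 ± 0.07, SE; adjusted p = 0.0222), which lost its call without BD_VNS 1, BD_VNS 3, BD_VNS 4, BD 4 or BD 6 (adjusted p up to 0.0637). It did not pass without BD 4 and BD 6 or with the covariate. The list median was 0.013 with all arrays and -0.082 without BD 4 and BD 6. In the list of 28 enteric neuron and glia genes 0 passed with all arrays or without BD 4 and BD 6 (limma), while 2 had an unadjusted p under 0.05. Of 35 genes of acetylcholine and adrenergic signalling, which carry the vagal and the sympathetic signal, 0 passed in either fit (limma) and 4 had an unadjusted p under 0.05. The smallest p among them was that of Chrm3, a muscarinic receptor of muscle and gland, which was at 8.58, 8.37, 8.19 and 8.28 in BD_VNS and at 8.08, 8.07, 8.17 and 8.15 in BD (0.23 ± 0.07; adjusted p = 0.0756). Leaving out 1 array gave 1 rise in the nerve list without BD_VNS 1 and 1 in the signalling list without BD_VNS 3. Chrna7, the nicotinic receptor subunit named in the inflammatory reflex, was not analysed here.

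**Figure D4:**
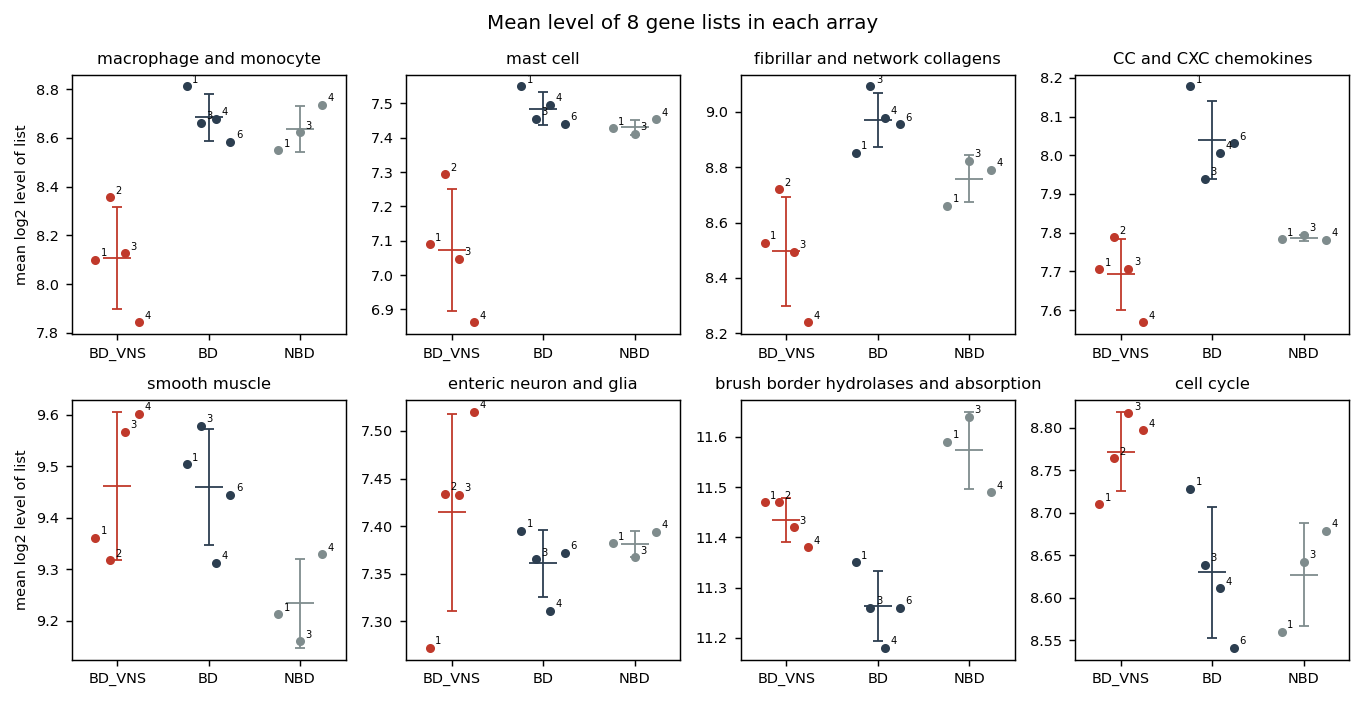
Mean log2 level of the measured members of 8 gene lists in each array, with replicate numbers beside the points, and the mean and SD of each group. For macrophages, mast cells, collagens and chemokines the 4 BD_VNS arrays lie below the 4 BD arrays, and for smooth muscle and for enteric neurons and glia these groups overlap.

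In the epithelium small rises met falls of secreted mucus proteins. Of 25 genes of brush border hydrolases and absorption 6 rose and 0 fell, with a median of 0.19. Anpep was at 13.35, 13.29, 13.40 and 13.15 in BD_VNS and at 13.10, 12.80, 12.91 and 12.95 in BD (0.36 ± 0.07, SE; adjusted p = 0.0155). Slc2a2, the glucose carrier of the basolateral side, was at 12.60, 12.60, 12.56 and 12.56 in BD_VNS, against 12.45, 12.33, 12.37 and 12.34 in BD (0.21 ± 0.04; adjusted p = 0.014). The groups overlapped for neither. Of 19 genes of fat absorption 3 rose, among them Mttp, which loads lipid onto chylomicrons (0.26 ± 0.06; adjusted p = 0.0242) and which lost its call without BD_VNS 1, BD_VNS 3, BD_VNS 4, BD 3, BD 4 or BD 6 (adjusted p up to 0.0642). Without BD 4 and BD 6, 0 genes of either list passed (limma), and the medians were 0.13 and 0.084. The list mean of the brush border was 11.38 to 11.47 in BD_VNS, 11.18 to 11.35 in BD, with BD 4 the lowest, and 11.49 to 11.64 in NBD. With the covariate 10 brush border genes and 3 fat absorption genes rose. In the leave-one-out fits there were 3 brush border rises without BD_VNS 3, BD 4 or BD 6, to 10 without BD 1. Among fat absorption genes 0 rose without BD_VNS 1, BD_VNS 3, BD 3, BD 4 or BD 6, to 5 without BD 1.

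Among 19 genes of goblet cells and Paneth cells, 4 fell and 0 rose. Zg16, a lectin of the mucus layer that acinar cells also make, was at 12.69, 13.08, 12.77 and 12.25 in BD_VNS and at 13.53, 13.50, 13.66 and 13.51 in BD (-0.85 ± 0.13, SE; adjusted p = 0.0065). Tff3, the trefoil peptide that goblet cells secrete, was at 12.82, 12.99, 12.90 and 12.50 in BD_VNS, against 13.49, 13.50, 13.17 and 13.25 in BD (-0.55 ± 0.10; adjusted p = 0.0123). Both passed without BD 4 and BD 6 and with the covariate, while Clca1 and Slc12a8 did not. Clca1 lost its call without BD_VNS 1, BD_VNS 3, BD 1, BD 3 or BD 6 (adjusted p up to 0.0654), and Slc12a8 passed only without BD_VNS 2, BD 6, NBD 1 or NBD 4 (adjusted p up to 0.0736). Of 17 junction genes Cldn4, a claudin of tight junctions, fell (-0.31 ± 0.07; adjusted p = 0.0216), and its call was lost without BD_VNS 1 or BD_VNS 3 (adjusted p up to 0.0564). It passed without BD 4 and BD 6 and not with the covariate. Of 13 crypt stem cell and Wnt target genes 2 rose, Axin2 and Ephb2, a receptor that positions crypt cells (0.18 ± 0.04; adjusted p = 0.0264), which lost its call without BD_VNS 1, BD_VNS 4, BD 1, BD 3 or BD 6 (adjusted p up to 0.0855). Ephb2 did not pass without BD 4 and BD 6, and neither gene did with the covariate. Of 25 cell cycle genes 3 rose, the cyclins Ccne2 (0.26) and Ccne1 (0.21) and the helicase subunit Mcm6 (0.37), and 0 passed without BD 4 and BD 6 or without BD_VNS 3, BD 4 or BD 6. Of 21 enteroendocrine genes 0 passed (limma), while 2 had an unadjusted p under 0.05.

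In the lists of metabolism and stress 0 to 3 genes each passed. Of 26 glucocorticoid-induced genes 2 fell and 0 rose. They were Anxa1, annexin A1, which restrains leukocyte recruitment (-0.95 ± 0.16, SE; adjusted p = 0.00969), and Hsd11b1, which regenerates active glucocorticoid (-0.58 ± 0.12; adjusted p = 0.0171), and neither passed without BD 4 and BD 6. Fkbp5, a strong target of the glucocorticoid receptor, averaged 7.27 ± 0.10 in BD_VNS and 7.16 ± 0.10 in BD (SD, n = 4 each; adjusted p = 0.661). Of 16 clock genes Cry1 rose (0.31 ± 0.07; adjusted p = 0.0255) and lost its call without BD_VNS 1, BD_VNS 3, BD 3, BD 4 or BD 6 (adjusted p up to 0.0677). It did not pass without BD 4 and BD 6. In limma 0 of 44 oxidative phosphorylation genes passed (11 had an unadjusted p under 0.05), 0 of 22 cholesterol genes (0 under 0.05), 0 of 26 immediate early genes (4 under 0.05) and 0 of 5 ribosomal protein genes (1 under 0.05). Of 26 genes of fatty acid oxidation 1 rose, as did 1 of 26 heat shock genes, 1 of 23 antioxidant genes and 1 of 33 proteasome genes, while 2 of 28 apoptosis genes fell. Drug and toxin metabolism had 2 falls and 1 rise among 34 genes. There was 1 fall without BD 4 and BD 6 among the apoptosis genes and 0 calls among the genes of fatty acid oxidation, heat shock, antioxidants, the proteasome and drug metabolism (limma). Of 29 genes of the endoplasmic reticulum and integrated stress responses 2 fell, Vldlr, a lipoprotein receptor (-0.38 ± 0.05; adjusted p = 0.00319), and Eif2ak3, the stress kinase PERK (-0.47 ± 0.12; adjusted p = 0.0465). Vldlr passed without BD 4 and BD 6 and Eif2ak3 did not. Eif2ak3 passed only without BD 1, BD 3 or BD 4 among the fits that left out 1 array (adjusted p up to 0.102). Hmox1, which degrades heme, averaged 9.42 ± 0.17 in BD_VNS and 9.61 ± 0.10 in BD (SD, n = 4 each), with an adjusted p of 0.317.

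Among 26 genes of prostaglandins and leukotrienes 5 fell and 1 rose. Pla2g4a was the 1 fall without BD 4 and BD 6, and with the covariate 3 fell and 1 rose. Pla2g4a, the phospholipase that frees arachidonic acid, was at 7.19, 7.28, 7.26 and 7.16 in BD_VNS and at 7.71, 7.67, 7.69 and 7.47 in BD (-0.41 ± 0.06, SE; adjusted p = 0.00499) and passed in each of its 22 alternative fits. Ptges, an inducible prostaglandin E synthase (-0.42 ± 0.07; adjusted p = 0.0111), and Hpgds, a prostaglandin D synthase that mast cells express (-0.48 ± 0.09; adjusted p = 0.0139), fell and did not pass without BD 4 and BD 6. Ptgs2, the inducible cyclooxygenase, averaged 6.49 ± 0.10 in BD_VNS and 6.64 ± 0.03 in BD (SD, n = 4 each; adjusted p = 0.0882). Of 24 coagulation and fibrinolysis genes 4 fell: Tfpi, the inhibitor of the tissue factor pathway (-0.48 ± 0.08; adjusted p = 0.00736), Plat, F3 and Plau. F3, tissue factor, lost its call without BD_VNS 1, BD_VNS 4, BD 6 or NBD 3 (adjusted p up to 0.0912), and Plau passed only without BD_VNS 2 or BD 4 (adjusted p up to 0.128). F3 and Plat were the 2 that fell without BD 4 and BD 6, and with the covariate 2, Tfpi and Plat. Of 17 adipocyte genes 3 fell, including Fabp4, a fatty acid binding protein that endothelium and macrophages also express (-0.67 ± 0.14; adjusted p = 0.0191), and 0 passed without BD 4 and BD 6 or with the covariate (limma). With 1 array left out 1 adipocyte gene fell without BD_VNS 1, BD_VNS 3, BD_VNS 4 or BD 6, and up to 3 otherwise. Of 8 red blood cell genes 0 passed (limma; 2 had an unadjusted p under 0.05).

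Levels in NBD placed the falls differently from gene to gene. The genes below are examples, and how many of the falls had each pattern was not counted. The comparisons with NBD share arrays with BD_VNS against BD and with each other, so their values are set side by side with no test of likeness. Against NBD, 8.44% of genes passed for BD_VNS and 5.73% for BD. Il1b averaged 8.17 ± 0.12 in BD_VNS, 8.87 ± 0.08 in BD and 8.16 ± 0.09 in NBD (SD; n = 4, 4 and 3 for each gene that follows). Ccl11 averaged 9.46 ± 0.34 in BD_VNS, 10.65 ± 0.13 in BD and 9.82 ± 0.12 in NBD, and Gbp2 averaged 7.63 ± 0.12 in BD_VNS, 8.36 ± 0.18 in BD and 7.79 ± 0.04 in NBD. In these 3 genes the mean of BD stood above both other groups, and BD minus NBD was 0.71, 0.83 and 0.57 in that order (adjusted p = 0.000165, 0.00649 and 0.00338). BD_VNS minus NBD was 0.01 for Il1b and -0.16 for Gbp2 (limma adjusted p = 0.944 and 0.34). For Ccl11 the mean of BD_VNS lay below that of NBD, at 9.46 against 9.82.

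Mcpt1 averaged 8.57 ± 0.98 in BD_VNS, 10.41 ± 0.18 in BD and 10.39 ± 0.13 in NBD. Dcn averaged 10.32 ± 0.48 in BD_VNS, 11.39 ± 0.04 in BD and 11.47 ± 0.05 in NBD, and Mgp averaged 9.98 ± 0.26 in BD_VNS, 10.95 ± 0.01 in BD and 11.07 ± 0.13 in NBD. C1qc averaged 8.81 ± 0.53 in BD_VNS, 9.92 ± 0.11 in BD and 10.06 ± 0.16 in NBD. For these 4 genes the mean of BD_VNS lay farthest from the other 2. BD_VNS minus NBD was -1.82, -1.16, -1.09 and -1.25 in that order (adjusted p = 0.0137, 0.00398, 0.000227 and 0.00512), and BD minus NBD was 0.02, -0.08, -0.12 and -0.13 (adjusted p = 0.988, 0.886, 0.627 and 0.812).

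**Figure D5:**
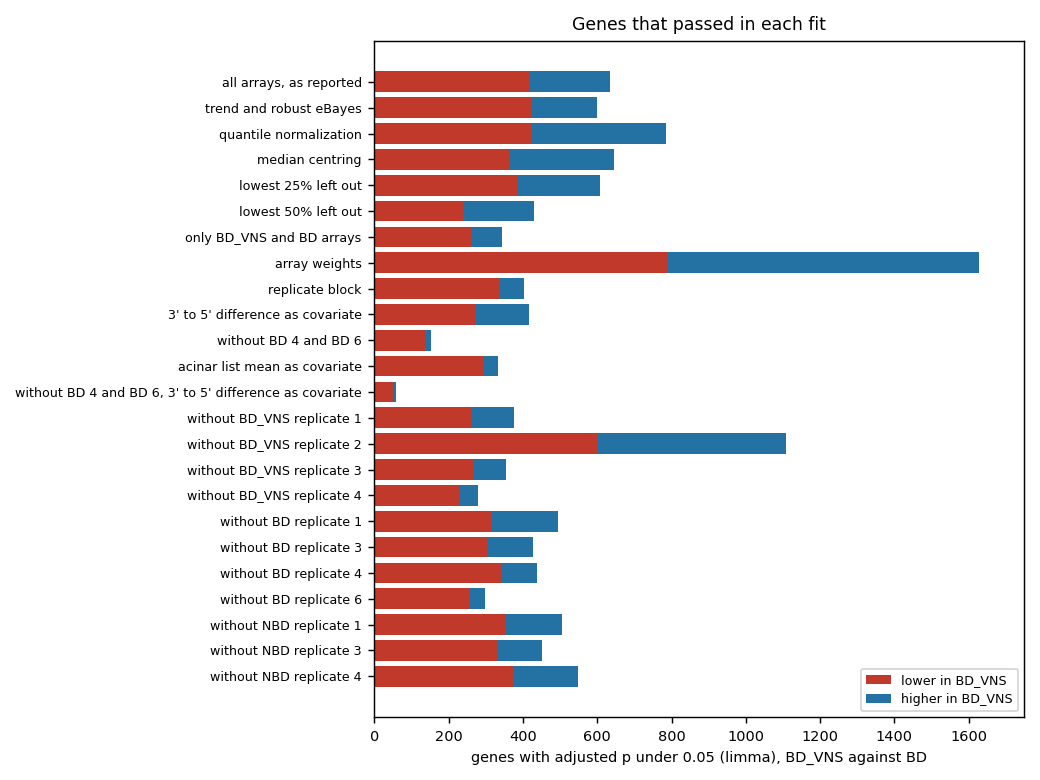
Number of genes that passed in BD_VNS against BD with all arrays and in each of 23 alternative fits, with genes lower in BD_VNS in red and genes higher in BD_VNS in blue. The counts run from 57 without BD 4 and BD 6 with the covariate to 1628 with array weights, and lower genes outnumber higher ones in every fit shown but the one with array weights.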

How the data were processed

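Total RNA of the small intestine, extracted with Trizol and labelled as biotin cRNA per the labels' protocols, was measured on 11 Affymetrix arrays (BD_VNS 4, BD 4, NBD 3). The authors deposited 1 log2 value per array for each of 11484 probe sets. The log2 scale was read from the values, and the normalization and custom probe set definition are not stated in the labels. After 57 controls were left out, 11427 probe sets were tested, of which 11255 received a symbol through the platform table or RefSeq. Depth does not apply to arrays, so their number limits the precision.

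Groups followed the titles. The 3 groups were fitted together in limma 3.58.1 (R 4.3.3; lmFit, eBayes), with Benjamini-Hochberg adjustment over all probe sets, and the threshold was an adjusted p of 0.05. SEs and p-values thus rest on a spread pooled over the groups, also where the BD_VNS arrays spread more widely. The code was tested on simulated data with independent noise and the same spread in every group. That test did not mimic the acinar transcripts, the RNA quality or the wider spread of BD_VNS arrays, so it does not cover them. Named genes were the 12 largest falls and rises whose groups did not overlap, the 12 of each that also passed without BD 4 and BD 6, up to 4 members of each of 49 lists by p (2 where 0 passed), and a fixed set. Genes chosen outside this rule are marked as chosen after their values were seen. The lists and the comparison were chosen with earlier results of these data known. Alternatives were another spread estimate, quantile normalization, median centring, filters leaving out the lowest 25% or 50% of genes, the 8 brain-dead arrays alone, array weights, a replicate block, the 3' to 5' difference or the acinar list mean as a covariate, leaving out BD 4 and BD 6, and leaving out each array.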

Additional observations from a re-analysis of the deposited data

Results flagged for a closer look

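Of 442 sets of 4 values checked, 13 held 1 array that lay far from the other 3 of its group relative to the spread of the set. The gap itself can be small in log2, as for Pom121 below. Chance alone sets apart about 1 in 20 such sets, and the 13 are a smaller share than that. BD 1 was set apart in this way for Cd53 at 9.86, RT1-Ba at 12.59, Ncf4 at 8.42, Cd3e at 7.76 and Lss at 8.54, which makes 5 of the 13 sets. In BD 3 it was so for Ramp3 at 6.87, and in BD 6 for Pla2g4a at 7.47 and Scg3 at 6.69. Among the BD_VNS arrays it was so for Traf6 at 7.72 in BD_VNS 1, Jam2 at 7.6 in BD_VNS 2, Ephb2 at 7.55 and Socs3 at 7.20 in BD_VNS 3, and Pom121 at 8.73 in BD_VNS 4.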

How the results depend on the processing

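The 635 genes that passed, 418 lower and 217 higher, became 600 with a trended and robust spread, 784 after quantile normalization (361 higher), 646 after median centring, 608 and 430 without the lowest 25% and 50% of genes (242 lower in the second), 343 in the 8 brain-dead arrays alone (264 lower, 79 higher), 1628 with array weights (790 lower, 838 higher), 415 with the 3' to 5' covariate (273 lower, 142 higher), 152 without BD 4 and BD 6 (140 lower, 12 higher), 333 with the acinar covariate (40 higher) and 57 without BD 4 and BD 6 and with the 3' to 5' covariate (50 lower, 7 higher). At an adjusted p under 0.10 there were 1265 (674 lower, 591 higher), and 16 with at least a 2-fold change (16 lower, 0 higher). Leaving out 1 array gave 279 to 1108 in all, 230 to 603 lower and 44 to 505 higher. The fits without BD 4 and BD 6 hold fewer arrays and also lack the acinar transcripts of those arrays, and these cannot be told apart. The cause of these and of the other shifts was not tested. Replicate numbers were not used to pair the arrays. Same-numbered BD_VNS and BD arrays deviated with r = 0.0628, -0.245 and 0.0715, and differently numbered ones with r from -0.219 to 0.18. So few values cannot settle whether the arrays were paired. With the replicate block 402 genes passed (64 higher). Of 134 named genes that passed, all kept their direction in every alternative, which dropping arrays could not change where groups did not overlap. Of 85 that did not pass, 11 changed sign in at least 1, always as log2 fold changes that did not pass. Without BD 4 and BD 6 these were Pnliprp2 0.0743, Cela1 0.0947, Cxcl2 0.0178, Sele 0.0040, Cpa1 0.388, Prss1 1.00 and Pnlip 0.632. With the 3' to 5' covariate as well they were Pnliprp2 0.0552, Cela1 0.0840, Xbp1 0.0143, Cxcl2 0.0958, Cpa1 0.318, Prss1 0.321 and Pnlip 0.379. With the acinar covariate they were Cxcl2 0.0088, Sele 0.0052, Cpa1 0.0908, Prss1 0.777 and Pnlip 0.358. Il10 was -0.0053 after quantile normalization, -0.0284 with the block, and -0.0341 to 0.0483 when 1 array was left out. Sele was 0.0090 with array weights and -0.0645 to 0.0066 when 1 array was left out, above 0 only without BD 4. Selp was -0.0091 with the block and -0.0054 to 0.0550 when 1 array was left out, below 0 only without BD_VNS 2. Sgk1 was 0.0019 after median centring, 0.0052 with the block, 0.0041 with the 3' to 5' covariate, and -0.0919 to 0.0824 when 1 array was left out, above 0 without BD_VNS 1, BD_VNS 4, BD 3 or BD 6.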

Other observations

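A set of 28 genes, all lower in BD_VNS, passed in each of the alternative fits in which they were tested. They were read out after the calls were known. Among them were the parts of the receptor for calcitonin gene-related peptide, a neuropeptide of sensory nerves. Calcrl was at 6.60, 6.73, 6.59 and 6.50 in BD_VNS and at 7.03, 7.01, 7.08 and 6.97 in BD (-0.42 ± 0.05, SE; adjusted p = 0.00188). Ramp1, the partner that makes Calcrl a receptor for this peptide, chosen after its values were seen like the others below, was at 9.18, 9.48, 9.23 and 8.91 in BD_VNS, against 9.97, 9.87, 9.82 and 9.79 in BD (-0.66 ± 0.09; adjusted p = 0.00441). No BD_VNS array reached a BD array for either. The level of Calcrl was low, among the lowest 25% of genes by mean level, and whether it was detected was not tested. Ramp2 and Ramp3, which make Calcrl a receptor for adrenomedullin, had log2 fold changes of -0.22 and -0.18 and did not pass (adjusted p = 0.0633 and 0.0574). The difference between Ramp1 and the other 2 was not tested.

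Gucy1b1, a subunit of the nitric oxide receptor of muscle and platelets, was also among the 28. It was at 8.22, 8.23, 8.33 and 8.27 in BD_VNS and at 8.59, 8.71, 8.62 and 8.69 in BD (-0.39 ± 0.05, SE; adjusted p = 0.0027), and averaged 8.22 ± 0.09 in NBD (SD, n = 3).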
